A study of Homo sapiens with 6 samples.

Results

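The expression of 8 regulators of intestinal and epithelial identity was followed in HCT116 cells, an established epithelial line from a human colorectal cancer, after an siRNA against PLOD3. They are the homeobox factors CDX1 and CDX2, the nuclear receptor HNF4A, the Krüppel-like factors KLF4 and KLF5, the ETS factor ELF3, the grainyhead-like factor GRHL2 and the splicing regulator ESRP1. The genes were taken by name from the deposited table, and all 8 were found among its 60612 genes. RNA-seq after ribosomal RNA depletion covered 3 samples treated with PLOD3 siRNA and 3 treated with si NC, the control siRNA, each for 2 days. All 6 samples were HCT116 cells in the same medium, and the labels name no clone and no other agent. The series concerns PLOD3, whose product hydroxylates and glycosylates lysines of collagen, in the progression of colorectal cancer. Values per sample are given below in the order of the replicate numbers 1 to 3.

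CDX1 and CDX2 specify the intestine in the embryo and keep enterocyte and goblet cell genes on in the adult gut, where CDX2 works beside HNF4A. KLF5 is most abundant in the dividing cells of the crypt and KLF4 in the differentiated cells nearer the lumen. ELF3 is an epithelial ETS factor of the intestinal lining, GRHL2 keeps junction genes such as CDH1 on and opposes the mesenchymal repressor ZEB1, and ESRP1 sets the epithelial splice forms of genes such as CD44 and FGFR2.

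KLF5 was the member that passed the test: it fell to 56.2% of its si NC level, with every PLOD3 siRNA sample below every si NC sample. ESRP1, ELF3, GRHL2 and CDX2 averaged 84.2% to 90.7% of si NC and did not pass the test. ESRP1 was called lower in 4 of 20 alternative fits, among them each fit with the GC correction described below. KLF4 did not pass either, CDX1 had no reads in any sample, and HNF4A was listed at well under 1 FPKM throughout. With 1 of 6 tested members called lower and 0 called higher by edgeR (19.3% and 16.2% of all 12000 tested genes), the share of members called lower, 16.7%, was near the background. In either direction 35.5% of tested genes were called by edgeR, and 33.8% by limma on log2(FPKM + 1), 15.5% higher and 18.3% lower, with KLF5 the member called. By an unadjusted p under 0.05, 2 members were lower, KLF5 and ESRP1, as were 24.6% of tested genes. DESeq2 also called 1 member lower and 0 higher, against 21.3% and 19.6% of tested genes.

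A gene was tested where its FPKM (fragments divided by transcript length and library depth) averaged at least 1 over the 6 samples, which 6 of the 8 members did. The test was edgeR's quasi-likelihood test on the deposited estimated counts, two-sided, called at a Benjamini-Hochberg adjusted p below 0.05 over all tested genes. A fold change is given as the log2 of PLOD3 siRNA over si NC, with its standard error (SE). Estimated counts summed to 55416555 to 71736017 in PLOD3 siRNA and to 57457602 to 76802428 in si NC. Pearson's r of log2 CPM across tested genes was 0.961 to 0.971 within a group and 0.935 to 0.951 between groups. The labels do not state whether replicates came from separate cultures, and p-values therefore measure only the spread among these samples, which may be technical.

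PLOD3 itself was at 3.44, 3.40 and 4.05 FPKM in the PLOD3 siRNA samples, against 6.40, 7.16 and 6.22 FPKM in the si NC samples. The groups did not overlap (log2 fold change -0.85, SE 0.107, edgeR adjusted p = 0.0035). Both the GC and the GC and length corrections described below brought PLOD3 nearer to 0, to -0.55 in each (edgeR adjusted p = 0.00629 and 0.00508). Of 10 epithelial markers, 8 passed the level filter, of which 4 were called lower and 0 higher (median log2 -0.34). That is 50% lower, against 19.3% of all tested genes, and 0% higher, against 16.2%. After the GC correction 2 were called lower, beside 14.7% of genes. Limma on log2(TPM + 1) also called 2 lower (1461 of 12000 genes), as did edgeR without PLOD3 siRNA replicate 1 or 2 or si NC replicate 1 or 3 (1509 to 1916 genes). The 10 summed to 595 to 676 FPKM in PLOD3 siRNA and 722 to 767 in si NC, and EPCAM, which did not pass, averaged 101 ± 4.39 FPKM in PLOD3 siRNA and 94.7 ± 3.54 in si NC (SD, n = 3 each). CDH17 and VIL1, markers of the intestinal brush border lineage, were at or near 0, at no more than 0.0385 and 0.0158 FPKM in any sample. The 9 fibroblast markers summed to 1.52 to 1.93 FPKM in PLOD3 siRNA and 2.66 to 2.89 in si NC, mostly COL1A1, with DCN, LUM and FAP at 0. The 8 leukocyte markers summed to 1.72 to 1.85 FPKM in PLOD3 siRNA and 0.986 to 1.87 in si NC, mostly CD68, with PTPRC, CD3E and MS4A1 at 0. The 7 endothelial markers summed to 0.152 to 0.163 FPKM in PLOD3 siRNA and 0.110 to 0.315 in si NC, with CDH5 and EMCN at 0. COL1A1 was called lower (edgeR adjusted p = 0.0158) but not after the GC correction (edgeR adjusted p = 0.199). The part of the marker sums in the results was not tested.

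KLF5 and KLF4 bind the same GC-rich and CACCC motifs through closely related zinc fingers, and their upstream sequences are shown because KLF5 passed the test and KLF4 did not. Each run is the 250 bases before a transcription start, 5′ to 3′ on the gene's strand, from RefSeq on GRCh38.p14, and capitals mark matches to the motifs searched. KLF5 lies on chromosome 13, and the window is chr13:73054726-73054975, plus strand, just before the start of the gene in the deposited table (73054976 to 73077541). KLF4 lies on chromosome 9, and the window is chr9:107489770-107490019, minus strand, within the span of the gene in the table (107484852 to 107490482) but in no annotated exon.
KLF5: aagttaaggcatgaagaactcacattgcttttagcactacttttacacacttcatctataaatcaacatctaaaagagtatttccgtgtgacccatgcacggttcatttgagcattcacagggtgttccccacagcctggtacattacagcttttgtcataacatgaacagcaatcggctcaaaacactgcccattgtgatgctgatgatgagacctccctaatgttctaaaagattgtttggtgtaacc
KLF4: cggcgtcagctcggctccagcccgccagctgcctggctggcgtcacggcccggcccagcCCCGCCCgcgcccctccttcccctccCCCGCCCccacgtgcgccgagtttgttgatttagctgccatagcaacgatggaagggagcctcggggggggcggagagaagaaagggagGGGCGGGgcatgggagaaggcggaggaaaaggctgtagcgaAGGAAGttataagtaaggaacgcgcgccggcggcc
The motifs were searched on both strands, and none contains another: TTTATG for CDX, CAAAGTC for HNF4A, GGGCGGG for the SP and KLF families, GGGTGTG for KLF, AGGAAG for ETS, AACCGG for GRHL and CTTTGAT for TCF and LEF. Of 35116 upstream windows of the same length, they were found in 9.64%, 2.91%, 31.5%, 6.63%, 28.7%, 5.99% and 2.26%, in that order. The KLF5 window held 0 matches and 40.8% G and C, while the KLF4 window held 3 matches to GGGCGGG, 1 to AGGAAG and 69.2% G and C. RefSeq lists a second KLF5 start, whose window held 70.8% G and C, near that of KLF4, and 1 match to GGGCGGG. The contrast with KLF4 therefore depends on which KLF5 start is taken. ELF3 and CDX2, the other tested members with a window, did not pass either, and their windows held 0 matches to GGGCGGG. The table gives 1 value per gene, so reads from the 2 KLF5 starts are not told apart. A match here is a string of letters and not a site known to be bound.

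KLF5 (ENSG00000102554) stood at 11.8, 11.4 and 12.3 FPKM in the PLOD3 siRNA samples, against 22.4, 18.1 and 22.5 FPKM in the si NC samples. Every PLOD3 siRNA value lay below every si NC value, and the PLOD3 siRNA samples were also the tighter group. The means were 11.8 ± 0.449 FPKM in PLOD3 siRNA and 21.0 ± 2.50 FPKM in si NC (SD, n = 3 each), a log2 fold change of -0.82 (SE 0.0919, 95% interval -1.04 to -0.60, edgeR adjusted p = 0.00277). An exact permutation test on log2(FPKM + 0.1), two-sided with 3 samples against 3, gave p = 0.1, the smallest possible. KLF5 kept its direction and its edgeR, limma or DESeq2 call in all 20 alternative fits, at -0.90 to -0.70. In bulk RNA, fewer cells that make a transcript and less of it per cell cannot be told apart.

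KLF4 (ENSG00000136826) stood at 6.05, 4.85 and 5.39 FPKM in the PLOD3 siRNA samples, against 6.19, 6.04 and 2.77 FPKM in the si NC samples. The groups overlapped, and si NC replicate 3 was low on its own. The log2 fold change was 0.12 (SE 0.294, edgeR adjusted p = 0.769), and its 95% interval ran between 66.9% and 178% of si NC. Without si NC replicate 3 the sign turned, to -0.16 (edgeR adjusted p = 0.352). A ratio of the 2 factors within each sample compares them directly. The log2 ratio of KLF5 to KLF4, on FPKM + 0.1, was 0.95, 1.21 and 1.17 in the PLOD3 siRNA samples and 1.84, 1.57 and 2.97 in the si NC samples. The ratio was lower in every PLOD3 siRNA sample than in any si NC sample, by 1.02 on average (exact permutation p = 0.1, the smallest possible). It was highest in si NC replicate 3, and without that sample the difference was -0.59 rather than -1.02.

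**Figure D1:**
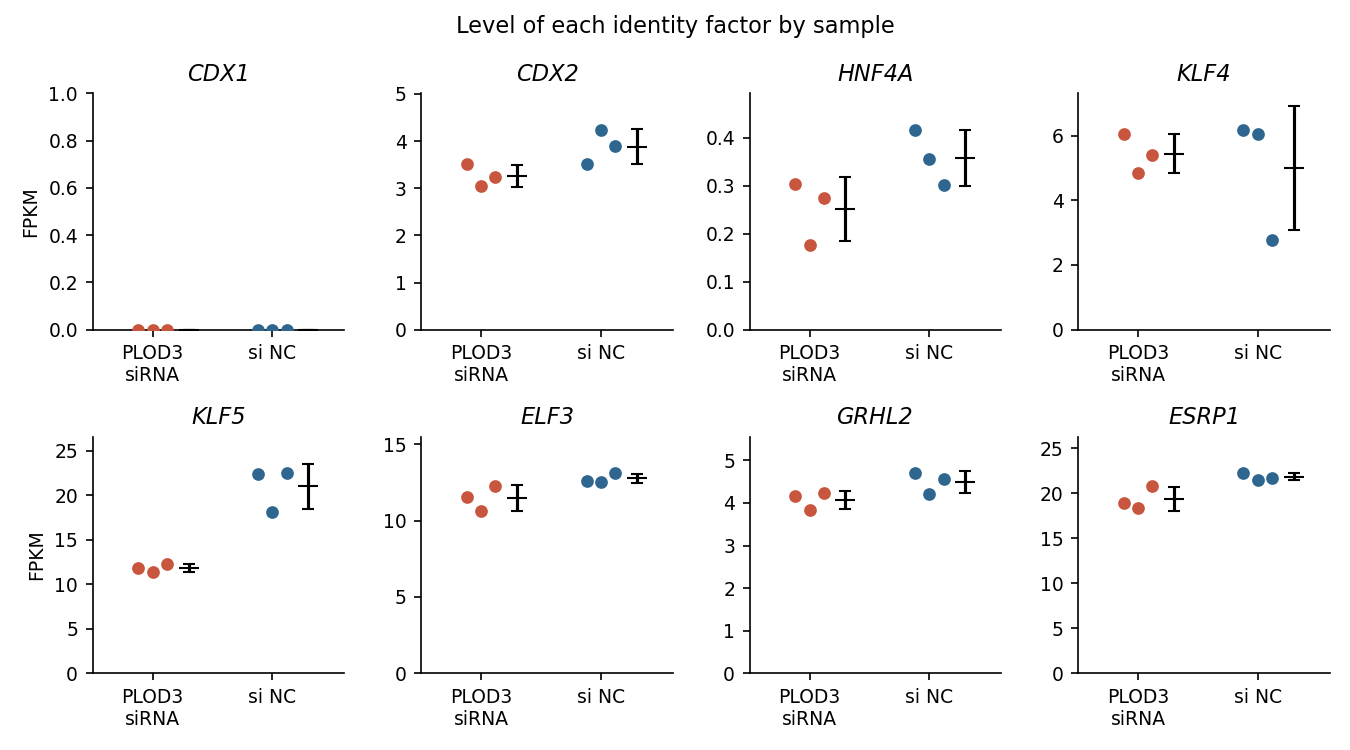
FPKM of the 8 identity factors in each sample (linear axes from 0, 1 panel a gene, PLOD3 siRNA left and si NC right); points are samples in replicate order, the black mark is the mean and the bar ± 1 SD, n = 3 each. KLF5 separates the groups widely, at 11.4 to 12.3 FPKM in PLOD3 siRNA against 18.1 to 22.5 in si NC, KLF4 has 1 low si NC sample at 2.77 FPKM, and CDX1 is drawn at 0.

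The intestinal factors were CDX1, CDX2 and HNF4A. CDX1 (ENSG00000113722, chromosome 5, 150166778 to 150184558, plus strand) had an estimated count of 0 in all 6 samples. If a read pair counts as 4 units, which the deposited counts do not settle, a count of 0 allows up to 3 read pairs, or 0.167 to 0.217 CPM (counts scaled to library size) in PLOD3 siRNA and 0.156 to 0.209 in si NC, a limit for counting error only. CDX1 was thus not detected at this depth in either group, and no fold change can be given.

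CDX2 (ENSG00000165556, chromosome 13, 27960918 to 27969315, minus strand) carried the CDX signal of these cells, at 3.51, 3.05 and 3.25 FPKM in the PLOD3 siRNA samples, against 3.51, 4.25 and 3.90 FPKM in the si NC samples. The groups touched at 3.51 FPKM, the highest PLOD3 siRNA value and the lowest si NC value. The means were 3.27 ± 0.232 FPKM in PLOD3 siRNA and 3.88 ± 0.369 FPKM in si NC (SD, n = 3 each), and the log2 fold change of -0.25 (SE 0.117, 95% interval -0.53 to 0.033) did not pass (edgeR adjusted p = 0.143). HNF4A (ENSG00000101076, chromosome 20, 44355700 to 44434596, plus strand) was at 0.305, 0.177 and 0.274 FPKM in the PLOD3 siRNA samples, against 0.418, 0.357 and 0.301 FPKM in the si NC samples. These values overlap, since PLOD3 siRNA replicate 1 lay just above si NC replicate 3. HNF4A was below the level filter. In the fit without the filter, where 6.29% of 32482 genes were called lower and 4.49% higher, its log2 fold change was -0.49 (SE 0.242, edgeR adjusted p = 0.28). HNF4A-AS1, on the opposite strand, had reads in PLOD3 siRNA replicate 3 alone, at 0.064 FPKM.

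The broad epithelial factors were ELF3, GRHL2 and ESRP1, and each lay slightly lower in PLOD3 siRNA. ELF3 (ENSG00000163435, chromosome 1, 202007945 to 202017183, plus strand) was at 11.5, 10.6 and 12.3 FPKM in the PLOD3 siRNA samples, against 12.6, 12.5 and 13.1 FPKM in the si NC samples. The groups did not overlap but came close, at 12.3 and 12.5 FPKM, and the log2 fold change of -0.15 (SE 0.0671, 95% interval -0.31 to 0.011) did not pass (edgeR adjusted p = 0.126). ELF3 shares its locus with 2 genes. ELF3-AS1, on the opposite strand, stood at 1.14, 1.10 and 1.19 FPKM in PLOD3 siRNA and 1.36, 1.39 and 1.40 in si NC, and AL691482, on the same strand, at 1.07, 1.01 and 0.57 FPKM in PLOD3 siRNA and 0.0653, 0.503 and 0.478 in si NC. Both were far below ELF3, but no strand setting is given in the sources used here, so reads of the opposite strand cannot be told apart.

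GRHL2 (ENSG00000083307, chromosome 8, 101492439 to 101669726, plus strand) was at 4.17, 3.83 and 4.23 FPKM in the PLOD3 siRNA samples, against 4.70, 4.21 and 4.57 FPKM in the si NC samples. The groups overlapped by a little, at 4.21 to 4.23 FPKM, and the log2 fold change was -0.14 (SE 0.0758, 95% interval -0.32 to 0.046, edgeR adjusted p = 0.205). ESRP1 (ENSG00000104413, chromosome 8, 94641074 to 94707466, plus strand) was the most abundant member in both groups, at 18.9, 18.4 and 20.8 FPKM in the PLOD3 siRNA samples, against 22.3, 21.5 and 21.7 FPKM in the si NC samples. All 3 PLOD3 siRNA values lay below the si NC values. The log2 fold change was -0.17 (SE 0.0644, 95% interval -0.32 to -0.013), which did not pass (edgeR adjusted p = 0.0861). In all, 3 of the 6 tested members (KLF5, ELF3 and ESRP1) were lower in PLOD3 siRNA with no overlap between the groups, and so were 27.5% of all tested genes, while 52.1% had no overlap in either direction.

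Fold changes in this comparison ran with the base composition of the transcript, which touches several members. In 5 bins of about 2394 tested genes, from the lowest to the highest GC content, the median log2 fold change was 0.28, 0.18, 0.014, -0.17 and -0.33. ELF3 and CDX2 have transcripts of 56.0% and 56.4% GC, and the genes within 1 percentage point of them had medians of -0.17 and -0.20, close to the members' own -0.15 and -0.25. ESRP1, at 42.8% GC, and KLF5, at 47.0% GC, had surroundings with medians of 0.20 and 0.054, above 0. After a trend on GC content was removed from each sample, ELF3 stood at 0.023 (edgeR adjusted p = 0.803), CDX2 at -0.061 (edgeR adjusted p = 0.678) and KLF5 at -0.87 (edgeR adjusted p = 0.00325), while ESRP1, at -0.34, was called lower (edgeR adjusted p = 0.0154). In that fit 2 of 6 members were called lower, against 14.7% of all tested genes, and the same count stood beside 10.2% of genes with a replicate block added. With length removed as well, ELF3 turned to 0.12 (edgeR adjusted p = 0.108), CDX2 to 0.0053 (edgeR adjusted p = 0.974) and GRHL2 stood at -0.012 (edgeR adjusted p = 0.907), with 2 of 6 members and 14.1% of genes called lower. ESRP1 was also called where only genes averaging at least 5 FPKM were tested (-0.21, edgeR adjusted p = 0.0454), where 2 of 4 tested members and 22.2% of 6095 genes were called lower. The part of the GC trend in these fold changes was not tested beyond these fits.

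**Figure D2:**
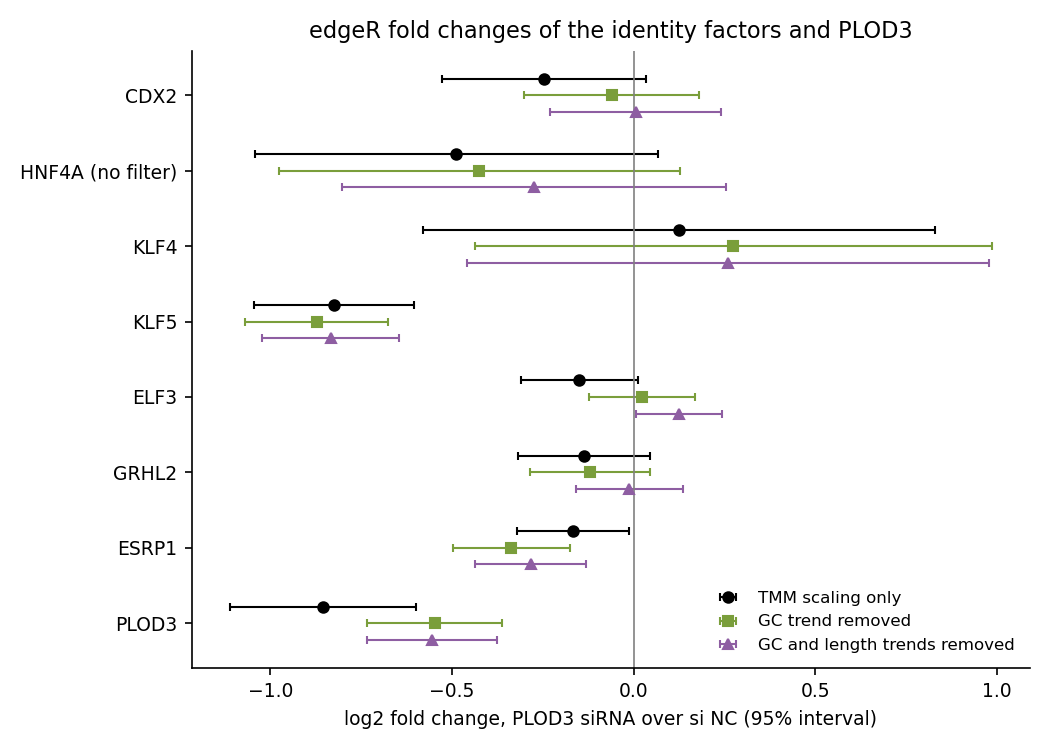
Log2 fold change, PLOD3 siRNA over si NC, with 95% intervals from edgeR for 7 members with reads and for PLOD3, in 3 fits (TMM scaling only, GC trend removed, GC and length trends removed); n = 3 samples per group, and HNF4A comes from the fits without the level filter. KLF5 stays between -0.82 and -0.87 in the 3 fits, ESRP1 moves away from 0 to -0.34 and ELF3 crosses from -0.15 to 0.12.

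**Figure D3:**
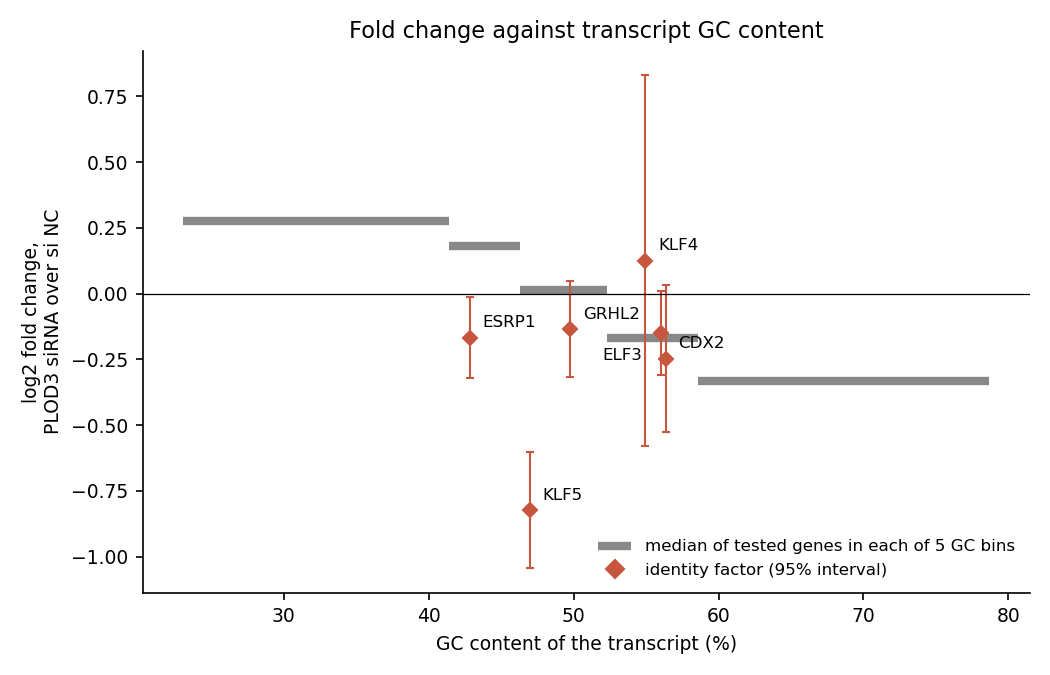
Log2 fold change against the GC content of the transcript for the 6 tested members (diamonds, 95% intervals), with grey bars at the median of the tested genes in each of 5 bins by GC content. The medians descend from 0.28 to -0.33, ELF3 and CDX2 lie near the bar of their bin, and KLF5 and ESRP1 lie below theirs.

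By FPKM, a scale that allows for transcript length, the members kept the same order in both groups. From the highest, the mean levels were 19.4 FPKM for ESRP1, 11.8 for KLF5, 11.5 for ELF3, 5.43 for KLF4, 4.08 for GRHL2, 3.27 for CDX2 and 0.252 for HNF4A in PLOD3 siRNA. In si NC they were 21.8, 21.0, 12.8, 4.999, 4.496, 3.88 and 0.359 FPKM in the same order, with CDX1 last in both. The neighbours changed: KLF5 shared its range with ELF3 in PLOD3 siRNA, and with ESRP1 in si NC. In PLOD3 siRNA the other neighbours had separate ranges, while in si NC KLF4, GRHL2 and CDX2 also overlapped.

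The nearest relatives of the members are other Krüppel-like, ETS, grainyhead-like and ESRP genes, and most of the tested Krüppel-like ones fell. Of 23 relatives, 14 were tested, of which 8 fell, 1 rose and 5 did not pass. The median log2 fold change was -0.48, against 0.0034 over all tested genes. Of the tested relatives 57.1% fell and 7.14% rose, against 19.3% and 16.2% of all tested genes. The genes that fell were KLF2, KLF3, KLF6, KLF7, KLF10, KLF11 and KLF13, which are 7 of the 8 tested KLF relatives, and the ETS factor ELF4. KLF13 averaged 5.52 ± 0.464 FPKM in PLOD3 siRNA and 9.05 ± 0.167 in si NC (SD, n = 3 each, log2 -0.71, edgeR adjusted p = 0.00255). KLF7 stood at 1.17, 1.14 and 1.13 FPKM in PLOD3 siRNA, against 1.73, 1.52 and 1.73 FPKM in si NC (log2 -0.53, edgeR adjusted p = 0.00844). For both genes the groups did not overlap. ELF4 (log2 -0.64, edgeR adjusted p = 0.00811) and KLF2, a factor best known from endothelium (log2 -0.66, edgeR adjusted p = 0.0124), fell by like amounts, and KLF2 did not pass with the GC trend removed (log2 -0.28, edgeR adjusted p = 0.111).

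The member of this list that rose was GRHL1, a relative of GRHL2, at 1.66, 1.65 and 1.68 FPKM in PLOD3 siRNA, against 1.32, 1.25 and 1.11 FPKM in si NC. All PLOD3 siRNA values lay above those of si NC (log2 0.45, edgeR adjusted p = 0.018), but it no longer passed with the GC trend removed (log2 0.33, edgeR adjusted p = 0.0506), without PLOD3 siRNA replicate 1 or si NC replicate 3. ESRP2, the relative of ESRP1, did not pass, at 5.27 ± 0.437 FPKM in PLOD3 siRNA and 6.24 ± 0.791 in si NC (SD, n = 3 each, log2 -0.23, edgeR adjusted p = 0.178). After the GC correction 7 of the 14 relatives were called lower and 0 higher, and the median was -0.45. Leaving out 1 sample at a time gave 4 to 7 lower, with 4 without si NC replicate 3, and with 5 without PLOD3 siRNA replicate 1 or 2. KLF2, KLF7, KLF13 and ELF4 kept the edgeR call in each of the 6 fits, KLF3 in 5, KLF6 in 2, and KLF10 and KLF11 in 1 each. Limma on log2(TPM + 1) called 3 of the 14 lower, beside 1461 of 12000 genes, with a median of -0.27. KLF12 and KLF15 were below the level filter and were called lower in the fit without it, in 1 and 0 of the 6 fits without a sample, and KLF15 not after the GC correction. In the fit without the filter KLF6, KLF10 and KLF11 were no longer called. There 7 of 22 relatives were lower, beside 6.29% of 32482 genes.

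**Figure D4:**
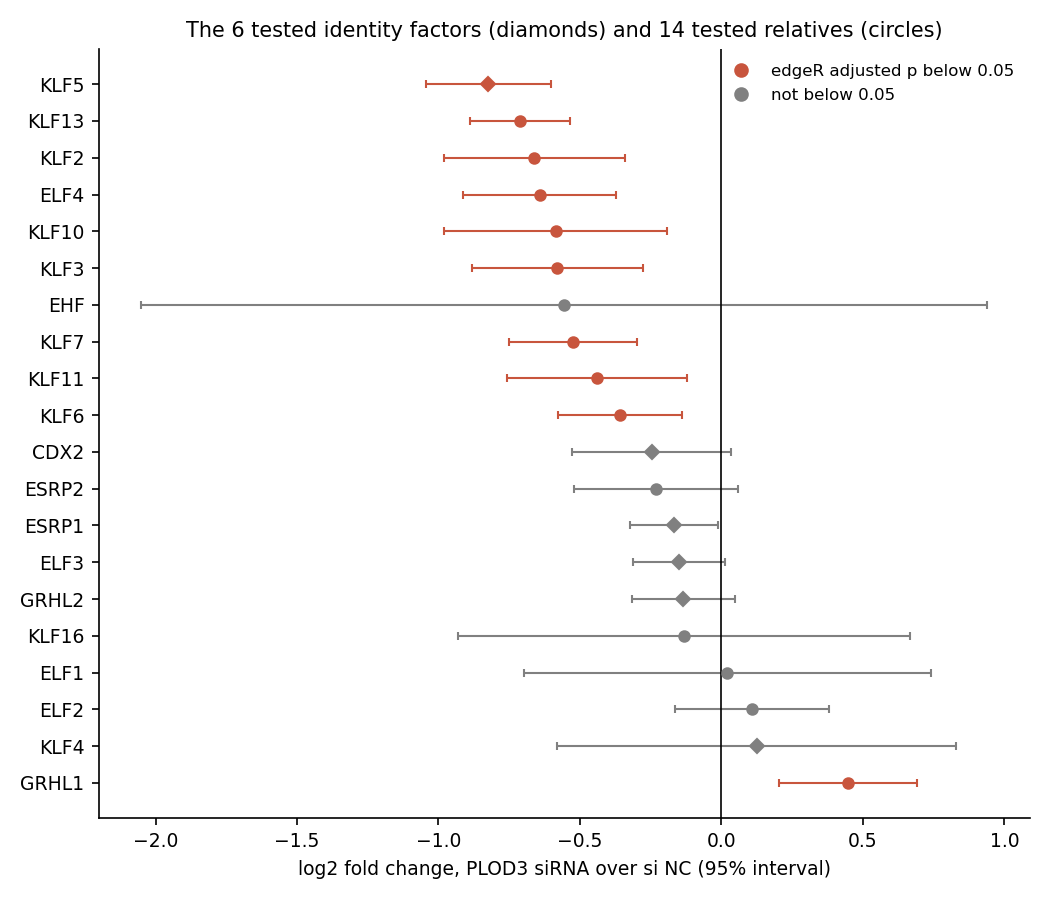
Log2 fold change, PLOD3 siRNA over si NC, with 95% intervals from edgeR for the 6 tested members (diamonds) and their 14 tested relatives (circles), sorted by value; red marks an adjusted p below 0.05, n = 3 samples per group. KLF5 lies lowest at -0.82, next to 7 other KLF genes and ELF4 in red, and GRHL1, at 0.45, is the only red point above 0.

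Across the 6 samples, the gene most like a member in log2 CPM, out of 28 tested relatives and other epithelial factors, was KLF7 for KLF5 (Pearson's r = 0.991), KLF11 for ESRP1 (0.988), KLF10 for GRHL2 (0.977), KLF6 for ELF3 (0.956) and GRHL1 for KLF4 (0.515). The 6 points form 2 groups and share scaling, so a value of this kind holds the difference between the groups and is given as a description.

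Other transcription factors of the gut and of epithelia gave 6 lower, 0 higher and 8 not passing out of 14 tested of 32, with a median log2 fold change of -0.35. That is 42.9% lower, against 19.3% of all tested genes, and 0% higher, against 16.2%. HOXB13, a homeobox factor of the hindgut and prostate, fell to 2.66 ± 0.160 FPKM in PLOD3 siRNA, against 5.10 ± 0.205 in si NC (SD, n = 3 each, log2 -0.93, edgeR adjusted p = 0.00255). SOX9, a factor of intestinal progenitors, fell by 0.98 (log2), while HES1, a Notch target, fell by 0.57. TCF7L2, the main DNA-binding partner of beta-catenin in the gut, and TFAP2A also fell, and they passed in 3 and 4 of the 6 fits without a sample. After the GC correction 6 were still called lower, with a median of -0.20, beside 14.7% of all tested genes. Leaving out 1 sample gave 4 to 6, beside 1509 to 2011 of 12000 genes, with 4 without PLOD3 siRNA replicate 1 or si NC replicate 3. FOXA1, FOXA2, GATA4 and ISX were among the 18 below the level filter.

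Genes of mature enterocytes and goblet cells, which CDX2 and HNF4A are known to drive, were scarce in both groups. Of 40 such genes 3 passed the level filter and 13 had no reads in any sample. Their levels summed to 19.9 to 22.6 FPKM in PLOD3 siRNA and to 19.7 to 25.2 FPKM in si NC, mostly from CA2, a carbonic anhydrase at 16.4 ± 1.49 FPKM in PLOD3 siRNA and 14.5 ± 1.84 in si NC (SD, n = 3 each, edgeR adjusted p = 0.274). KRT20, a keratin of differentiated colon cells, was at 0.91, 1.35 and 1.11 FPKM in PLOD3 siRNA, against 2.64, 1.94 and 2.28 FPKM in si NC. It was the 1 gene of the 3 that passed, and it fell (log2 -1.005, SE 0.211, edgeR adjusted p = 0.0138). Of all tested genes, 19.3% were called lower and 16.2% higher. DPP4, a brush border peptidase, did not pass (log2 -0.47, edgeR adjusted p = 0.0849), but was called lower after the GC correction (log2 -0.59, edgeR adjusted p = 0.0411), by DESeq2 (adjusted p = 0.0476) and without si NC replicate 2 (edgeR adjusted p = 0.0396). In the fit without the filter, where 6.29% of 32482 genes were called lower and 4.49% higher, 3 genes under 1 FPKM were called by edgeR. The mucin MUC12 and FCGBP were lower, at 0.0391 and 0.359 FPKM on average in PLOD3 siRNA and 0.235 and 0.551 in si NC, and FCGBP passed in 1 of the 6 fits without a sample. The brush border protocadherin CDHR5 was higher, at 0.426, 0.257 and 0.440 FPKM in PLOD3 siRNA, and listed without reads in si NC replicates 1 and 2 and at 0.0198 FPKM in replicate 3.

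GRHL2 is linked to a set of junction and surface genes of epithelia. Of 25 such genes, 24 were tested, of which 11 fell, 0 rose and 13 did not pass, with a median log2 fold change of -0.27. That is 45.8% lower, against 19.3% of all tested genes, and 0% higher, against 16.2%. SPINT1, an inhibitor of membrane serine proteases, and PRSS8, one of those proteases, fell by 0.96 and 0.87 on the log2 scale, while CLDN3 and TJP3, of tight junctions, fell by 1.22 and 0.93 (edgeR adjusted p = 0.00239 to 0.00287 for the 4 genes). E-cadherin (CDH1) was at 6.54, 7.07 and 9.60 FPKM in PLOD3 siRNA, against 15.1, 9.77 and 14.6 FPKM in si NC. The groups came close at PLOD3 siRNA replicate 3 and si NC replicate 2, and the call (log2 -0.76, edgeR adjusted p = 0.0287) held in 2 of the 6 fits without a sample. CLDN4 varied more within groups than between them, at 13.8, 1.62 and 16.0 FPKM in PLOD3 siRNA and 0.839, 33.3 and 32.5 FPKM in si NC. After the GC correction 6 of the 24 genes were called lower and 1 higher, with a median of -0.11. In that fit 14.7% of all tested genes were called lower. Leaving out 1 sample gave 5 to 8 lower, beside 1509 to 2011 of 12000 genes. The count was 5 without PLOD3 siRNA replicate 1 or si NC replicate 3, 6 without PLOD3 siRNA replicate 2 and 7 without si NC replicate 1. Limma on log2(TPM + 1) called 5 of the 24 lower, beside 1461 of 12000 genes. KRT8 and KRT18 have many pseudogene copies, so their levels are uncertain.

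Of 20 genes whose splicing ESRP proteins control, all 20 were tested, and 9 fell, 0 rose and 11 did not pass, with a median log2 fold change of -0.27. That is 45.0% lower, against 19.3% of all tested genes, and 0% higher, against 16.2%. MAGI1, a junction scaffold, fell by 0.72 on the log2 scale, LSR, a protein of tricellular junctions, by 0.54 and ARHGAP17 by 0.55. LSR no longer passed with the GC trend removed (log2 -0.17, edgeR adjusted p = 0.141). CD44 and FGFR2 also fell, by 0.80 and 0.65, but passed in 2 and 1 of the 6 fits without a sample. These are total gene levels, and a value per gene holds nothing on which exons were used. After the GC correction 8 were called lower, with a median of -0.16, beside 14.7% of all tested genes. With GC and length removed 6 were lower and 3 higher, beside 1687 and 1532 of 12000 genes. Leaving out 1 sample gave 6 to 8 lower, beside 1509 to 2011 genes. Limma on log2(TPM + 1) called 4 lower and 1 higher, beside 1461 and 2470 genes. The replicate block with GC correction called 5 lower, beside 10.2% of genes.

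Transcription factors that oppose the epithelial state were mostly at low levels. Of 14, 3 were tested, and FOXC1 and SNAI1 fell while SNAI3 did not pass. That is 2 of 3 lower and 0 higher, against 19.3% and 16.2% of all tested genes. FOXC1 stood at 7.12 ± 0.869 FPKM in PLOD3 siRNA and 12.9 ± 0.789 in si NC (SD, n = 3 each, log2 -0.86, edgeR adjusted p = 0.00289), and SNAI1, a repressor of CDH1, at 5.04 ± 0.44 FPKM in PLOD3 siRNA and 7.45 ± 0.953 in si NC (SD, n = 3 each, log2 -0.56, edgeR adjusted p = 0.0286). SNAI1 did not pass with the GC trend removed (edgeR adjusted p = 0.108), and it passed in 2 of the 6 fits without a sample. ZEB1, the repressor set against GRHL2, was below the level filter, at 0.607, 0.402 and 0.521 FPKM in PLOD3 siRNA, against 0.309, 0.258 and 0.297 FPKM in si NC. Its values did not overlap, and in the fit without the filter it rose (log2 0.84, SE 0.191, edgeR adjusted p = 0.0288). It did not pass with the GC trend removed (log2 0.70, edgeR adjusted p = 0.0613) or in 5 of the 6 fits without a sample, and passed without PLOD3 siRNA replicate 2. ZEB1 lost its call in 11 of 17 alternative fits. Among them were each limma fit (limma adjusted p = 0.122 to 0.170) and both fits with a replicate block (edgeR adjusted p = 0.0612 and 0.116). ZEB2, SNAI2, TWIST1 and PRRX1 were listed at no more than 0.417 FPKM in any sample.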

How the data were processed

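RNA-seq of 6 HCT116 samples was used. The authors deposited 1 table of 60612 genes with an FPKM and an estimated count per sample, per the file headers, with 0 of 12 value columns unmapped. The deposited FPKM write 0.0001 for a gene without reads. Cutadapt 1.9, HISAT2 2.0.4 and StringTie 1.3.4d are named, per the submitters' processing notes. Build, annotation release, strand setting and counting step: not given in the sources used here. The deposited estimated counts pile up at multiples of 4 (on average 1490 genes at 4 and 558 at 3), with 755 and 675 genes at 1 and 2. What 1 unit stands for is not known, and 4 units per read pair were assumed for the limit at a count of 0. By identifier, 96.3% of genes were found in GENCODE 29 (GRCh38), of which 99.9% overlapped their annotated position, so coordinates were read as GRCh38.

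Genes averaging 1 FPKM or more (12000) were kept, and their estimated counts were used as deposited, scaled by TMM and tested with edgeR 4.0.16 in R 4.3.3 with all 6 samples and no covariate. Intervals are 95%. Alternatives were limma 3.58.1 on log2(FPKM + 1 or 0.1) and on TPM computed from FPKM, DESeq2 1.42.0, other scalings and filters, counts divided by 4, loess trends (span 0.5) on GC content and length from GENCODE (11968 tested genes had both), a replicate block and leaving out each sample. The edgeR script was run on simulated data with few changed genes and no GC trend, so that run does not bear on the GC trend seen here. Members and lists were chosen with earlier results of these data known. Genes named are PLOD3, the members, the 4 tested genes of smallest p in each list, the gene most like each member, overlapping genes and genes in counts of 5 or fewer; CA2, CDH1, CLDN4, KLF3, KLF6, KLF10, KLF11, TCF7L2, SNAI3, DPP4, TFAP2A, CD44 and FGFR2 were named after their values were seen. Some genes that this rule takes are not reported here. Of the members, 5 matched the promoter table (KLF5 and HNF4A with 2 windows each); CDX1 was not matched, and GRHL2 and ESRP1 are not shown.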

Additional observations from a re-analysis of the deposited data

How the results depend on the processing

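KLF5 and PLOD3 kept their direction and their call in all 20 alternatives, at -0.90 to -0.70 and -0.92 to -0.55. No member was called higher in any alternative. The count of members called lower was 2 rather than 1 with the GC correction, the GC and length correction, the replicate block with GC correction and a mean FPKM of at least 5, each time by the addition of ESRP1 (at least 5 FPKM left 4 members tested), and 1 in each fit without a sample. The sign turned for KLF4 without si NC replicate 3 (-0.16, in a range of -0.16 to 0.31 over the fits without a sample), for ELF3 with the GC correction (0.023), with GC and length (0.12) and with the block and GC (0.023), and for CDX2 with GC and length (0.0053). Among other genes it turned for CA2 with GC and length (-0.031), for ST14 with GC (0.043), GC and length (0.079) and block with GC (0.042), for KRT19 with GC (0.078) and block with GC (0.078), and for EXOC7 with GC and length (0.024). The cause was not tested. Over all genes, 1945 were higher and 2319 lower in edgeR, against 1020 and 1230 with the block and GC, 1192 and 1354 at a mean FPKM of at least 5, and 1083 to 1651 and 1509 to 2011 without 1 sample. Limma on log2(TPM + 1) called 2470 higher and 1461 lower and moved the median of all genes to 0.095, and limma on log2(FPKM + 1) without a filter called 1167 higher. The labels do not state whether samples of the same replicate number were paired. Their deviations from the group means correlated at 0.049, -0.011 and -0.023, which cannot settle this with 3 samples per group. With the replicate block alone 1471 genes were higher and 1834 lower, KLF5 stood at -0.82, and 1 sample of 3 correlated best with its own number. The KLF5 to KLF4 difference was -0.93 with a pseudocount of 1 and -1.30 to -0.59 without 1 sample. The CDX2 to CDX1 difference was -0.24, with -0.31 to -0.18 without 1 sample. With CDX1 listed at 0 in every sample, that difference is the change of CDX2 alone and holds nothing on CDX1. Leaving out 1 sample for these ratios was an alternative chosen after seeing the data. Low levels limit HNF4A and ZEB1 (under 1 FPKM), and CDX1 cannot be tested.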
